A study of Homo sapiens with 10 samples.

Results

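The genes described here are 9 cytokines and receptors out of 34567 genes in the count table: the interleukin-1 ligands IL1A and IL1B, the receptor antagonist IL1RN, the receptors IL1R1, IL1RAP and IL1RL1, the related ligands IL33 and IL18, and IL24, a cytokine of the interleukin-10 family. They were found by gene name, and 8 of the 9 passed the filter on low counts, which left 17312 genes for testing. IL33 did not pass. The group was chosen by its readout: IL1A and IL24 were higher in both perturbed lines, so the values of all 9 in the knockdown and overexpression comparisons are a description and carry no test.

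Poly-T selected mRNA was sequenced from 10 libraries of SNB19 and U87, established human glioma cell lines grown in DMEM with fetal bovine serum. In SNB19, 3 libraries came from cells given scramble siRNA (NC) and 3 from cells given siRNA against MEOX2 (siMEOX2), each transiently transfected with a lipid reagent. In U87, 2 libraries came from cells infected with an empty lentiviral vector (EV) and 2 from cells infected with a lentivirus carrying Flag-tagged MEOX2 (OE). The treatment labels of 3 of these 4 libraries carry other MEOX numbers and both OE titles bear the same replicate number, so the vector is taken here from the titles and the study's methods. Both U87 lines had polybrene at infection and puromycin selection afterwards. MEOX2 is a homeobox transcription factor, and the comparisons ask what its loss and its gain do to the transcriptome of a glioma cell. The labels do not say that replicates were separate cultures, so p-values measure only the spread between these libraries, which may be technical.

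Interleukin-1 alpha and interleukin-1 beta are made as precursors and signal through the same receptor, in which IL1R1 binds the ligand and IL1RAP joins as the shared co-receptor. IL1RN occupies IL1R1 without recruiting IL1RAP and so blocks both ligands. The receptor assembly calls MYD88 and IRAK kinases, which lead to NF-kB and AP-1 and to the transcription of chemokines, IL6 and proteases. IL33 acts through IL1RL1 with the same co-receptor, and IL18 acts through its own receptor pair. IL24 acts through IL20RB paired with IL20RA or IL22RA1 and on to STAT proteins. In glioma cultures, interleukin-1 is known as an inflammatory signal that tumour cells both make and receive.

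Total counts ran from 12533775 to 16560324 per library, so 3 counts in a library stand for 0.173 to 0.267 CPM (counts per 1000000, scaled by the trimmed mean of M-values, TMM). The 2 EV libraries stood apart from each other. Their Pearson r across genes on the log2 scale was 0.944, against at least 0.989 for every other library and its nearest replicate, the mean chi-square per gene between their counts was 280, against 2.06 to 6.56 for the other replicate pairs, and EV replicate 1 had a TMM factor of 0.695. For members and genes named by rule, U87 folds that moved by more than 1.5 times without an EV library are also given without it. Of 12 glial and glioma markers, 9 reached a mean of 1 CPM in NC and 8 in EV, while AQP4 was at 0 in NC and S100B, AQP4 and ALDH1L1 were at 0 in both U87 groups. The summed glial list ran from 1774 to 1780 CPM in NC and from 783.5 to 836.9 in siMEOX2, and from 2401 to 6224 in EV and 1427 to 1435 in OE. The markers of mast cells and of T and B cells summed to at most 1.22 CPM in any library. The microglia and macrophage list summed to between 20.98 and 24.2 CPM in NC and between 7.77 and 9.86 in siMEOX2, and to between 18.09 and 18.36 in EV and between 2.90 and 4.32 in OE, most of it CSF1R. ITGAM had group means of 2.57 CPM in NC and 2.77 in siMEOX2, and CD14 had 1.31 in NC. In the other groups these 2 had at most 0.48 CPM. PTPRC, AIF1, CD68, CX3CR1 and P2RY12 had group means of at most 0.108 CPM. The endothelial list summed to between 40.14 and 44.9 CPM in NC and between 10.24 and 12.12 in siMEOX2, and the epithelial list to between 353.7 and 384.5 in NC and between 222.2 and 260.9 in siMEOX2, while in U87 they were at most 14.51 and 5.97 CPM. The part of these marker lists in the results was not tested.

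MEOX2 itself was counted 249, 224 and 275 times in NC and 54, 40 and 49 times in siMEOX2, a log2 fold change of -2.42 ± 0.15 (SE). It was counted 0 times in both EV libraries and 4999 and 5308 times in OE. Against a floor of 3 counts over the EV group, that is at least 3255-fold higher. Transgene and endogenous transcript cannot be told apart in these counts.

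The sequences just upstream of 4 members are shown because IL1A and IL24 moved alike in both lines, while IL1B and IL1RN were higher in U87 alone. They are RefSeq windows of GRCh38.p14 reaching 250 bases before a start site, cut where a GENCODE 29 exon begins, and are written 5′ to 3′ on the gene's strand. Capitals mark matches, on either strand, to TATAAA (the TATA box), TGANTCA (the AP-1 core), GGNNNTTCC (an NF-kB core) or TAATTA (a homeobox core). The IL1A stretch is chr2:112784591-112784743 on the minus strand, the IL1B stretch chr2:112836904-112837029 on the minus strand, the IL1RN stretch chr2:113127348-113127560 on the plus strand, within the gene and before an internal start, and the IL24 stretch chr1:206897193-206897442 on the plus strand.
IL1A: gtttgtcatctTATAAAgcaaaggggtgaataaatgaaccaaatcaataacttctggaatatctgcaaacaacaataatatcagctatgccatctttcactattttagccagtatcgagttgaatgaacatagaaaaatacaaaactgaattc
IL1B: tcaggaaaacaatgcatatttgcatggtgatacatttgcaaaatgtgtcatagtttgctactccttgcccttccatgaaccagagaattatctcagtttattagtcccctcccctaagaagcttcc
IL1RN: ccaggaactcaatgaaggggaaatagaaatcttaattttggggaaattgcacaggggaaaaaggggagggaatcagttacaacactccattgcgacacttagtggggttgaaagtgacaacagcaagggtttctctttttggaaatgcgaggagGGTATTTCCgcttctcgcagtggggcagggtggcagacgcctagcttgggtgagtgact
IL24: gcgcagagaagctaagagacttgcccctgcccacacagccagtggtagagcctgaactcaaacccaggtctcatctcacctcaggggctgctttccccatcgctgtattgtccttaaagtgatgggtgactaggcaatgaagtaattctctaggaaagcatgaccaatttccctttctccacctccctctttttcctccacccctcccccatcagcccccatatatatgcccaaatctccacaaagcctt

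Other listed start sites of IL1A and IL1RN have windows of their own, which are given after those shown. In the full 250 bases before the start shown, IL1A had TATAAA at 239 to 234 bases upstream and TGACTCA at 12 to 6 bases upstream, the latter inside an exon that GENCODE draws from further upstream. The IL1RN window had GGTATTTCC at 96 to 88 bases upstream and TATAAA at 30 to 25 bases upstream. None of the 4 motifs stood in the IL1B or the IL24 window. The second IL1A window, which overlaps the first, had that same TGACTCA, at 105 to 99 bases upstream of its own start. It also had TGAGTCA at 55 to 49 bases upstream. Of the other IL1RN windows, 1 had TGAGTCA at 223 to 217 bases upstream and 1 had none of the motifs. Over 35116 promoter windows of the same length, 10.72% held TATAAA, 6.57% held TGANTCA, 17.12% held GGNNNTTCC and 4.35% held TAATTA. A match is a string of letters and not a measured site.

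IL1A (ENSG00000115008, chr2:112773915-112784590, minus strand, GENCODE 29) was counted 71, 47 and 61 times in NC and 449, 552 and 620 times in siMEOX2. In U87 it was counted 57 and 37 times in EV and 1083 and 1304 times in OE. Every siMEOX2 library lay above every NC library and every OE library above every EV library. In such bulk RNA, more cells with a transcript and more transcript per cell cannot be told apart. In CPM the group means were 3.69 ± 0.42 (SD, n = 3) in NC, 32.98 ± 6.48 (SD, n = 3) in siMEOX2, 3.92 ± 1.64 (SD, n = 2) in EV and 91.81 ± 2.91 (SD, n = 2) in OE. The fitted log2 fold change was 3.15 ± 0.24 (SE) in SNB19, which is 8.90-fold, and 4.56 ± 0.31 in U87, which is 23.6-fold. Without EV replicate 1 the U87 value was 5.09 and without EV replicate 2 it was 4.21. From the highest, IL1A ranked 41 of 17312 genes by fold change in SNB19 and 129 in U87. The NC and EV libraries overlapped.

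IL24 (ENSG00000162892, chr1:206897443-206904139, plus strand) was counted 158, 111 and 131 times in NC and 586, 874 and 839 times in siMEOX2. In EV it was counted 28 and 18 times, and in OE 1249 and 1632 times. The groups did not overlap in either line. The fitted log2 fold change was 2.50 ± 0.23 in SNB19 (5.66-fold) and 5.86 ± 0.34 in U87 (58.1-fold), ranking 129 and 37 of 17312 from the highest. Without EV replicate 1 the U87 value was 6.40 and without EV replicate 2 it was 5.50. In siMEOX2 replicate 1, both IL1A and IL24 had the lowest value of their group.

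IL1B (ENSG00000125538, chr2:112829751-112836903, minus strand) lies 45.2 kb from IL1A and went the opposite way in the 2 lines. It was counted 178, 147 and 175 times in NC and 72, 106 and 120 times in siMEOX2, so every siMEOX2 library lay below NC, with a log2 fold change of -0.77 ± 0.20. In U87 it was counted 219 and 248 times in EV and 16744 and 21971 times in OE, a log2 fold change of 6.29 ± 0.29, or 78.0-fold. In FPKM (count per kilobase of gene and per 1000000 counts), which allow levels of different genes to be compared, IL1B reached 458.2 ± 37.7 (SD, n = 2) in OE and ranked 55 and 51 among all genes of the 2 libraries. Its FPKM in NC was 3.53 ± 0.10 (SD, n = 3).

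The ratio of IL1A to IL1B FPKM turned over in SNB19. It was 0.581, 0.466 and 0.508 in NC and 9.09, 7.59 and 7.53 in siMEOX2. In U87 it was 0.379 and 0.218 in EV and 0.0943 and 0.0865 in OE. IL1A was thus the more abundant ligand transcript in the siMEOX2 libraries and IL1B in the other 7 libraries. The ratio of IL24 to IL1A FPKM ran from 2.31 to 2.54 in NC and from 1.40 to 1.70 in siMEOX2, and from 0.522 to 0.527 in EV and 1.24 to 1.34 in OE. It was lower with siMEOX2 and higher with OE.

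IL1RN (ENSG00000136689, chr2:113107214-113134016, plus strand), which encodes the antagonist, was counted 16, 2 and 4 times in NC and 0, 5 and 0 times in siMEOX2. These SNB19 groups overlapped, and the fitted log2 fold change of -2.07 ± 1.04 moved to -0.88 without NC replicate 1 and to -5.75 without siMEOX2 replicate 2. In U87 it was counted 62 and 49 times in EV and 911 and 1086 times in OE, with a log2 fold change of 4.07 ± 0.57. Set against both ligands, the ratio of IL1RN FPKM to the sum of IL1A and IL1B FPKM was 0.195 and 0.154 in EV and 0.0473 and 0.0433 in OE. The antagonist transcript was higher in OE and the ligand transcripts were higher by more.

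IL18 (ENSG00000150782, chr11:112143251-112164117, minus strand) was a transcript of SNB19. It was counted 464, 406 and 463 times in NC and 530, 503 and 418 times in siMEOX2, groups that overlapped, with a log2 fold change of 0.08 ± 0.16. In U87 it had 1 count in EV replicate 1 and 0 in the other 3 libraries. IL33 (ENSG00000137033, chr9:6215786-6257983, plus strand), an alarmin released from the nucleus, was at 0 in all 6 SNB19 libraries and was counted 8 and 10 times in EV and 4 and 3 times in OE. No fold is given where both groups had 3 or fewer counts, which holds for IL18 in U87 and IL33 in SNB19.

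Among the receptors, IL1R1 (ENSG00000115594, chr2:102064544-102179874, plus strand) was counted 766, 564 and 755 times in NC and 424, 410 and 365 times in siMEOX2. Every siMEOX2 library lay below NC, with a log2 fold change of -0.83 ± 0.28. In U87 it was counted 207 and 650 times in EV and 701 and 835 times in OE. Its log2 fold change of 0.82 ± 0.35 there rests on EV replicate 1, since it was 0.33 without that library and 1.71 without EV replicate 2.

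The co-receptor IL1RAP (ENSG00000196083, chr3:190514051-190659750, plus strand) went the other way in SNB19. It was counted 316, 326 and 299 times in NC and 527, 616 and 651 times in siMEOX2, a log2 fold change of 0.89 ± 0.25 with no overlap. The ratio of IL1R1 to IL1RAP FPKM was 3.96, 2.82 and 4.12 in NC and 1.31, 1.09 and 0.915 in siMEOX2. In U87 IL1RAP was counted 140 and 346 times in EV and 264 and 302 times in OE, so OE lay between the EV libraries. The log2 fold change of 0.18 ± 0.30 became -0.20 without EV replicate 1 and 0.84 without EV replicate 2.

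IL1RL1 (ENSG00000115602, chr2:102311502-102352037, plus strand), the receptor of IL33, had 0, 1 and 2 counts in NC and 2, 1 and 2 in siMEOX2. It was counted 20 and 10 times in EV and 291 and 338 times in OE, a log2 fold change of 4.28 ± 0.41 that was 5.05 without EV replicate 1 and 3.79 without EV replicate 2. IL1RL1 overlaps IL18R1 on the same strand, and IL18R1 had 298 counts over all 10 libraries. How reads in the overlap were counted is not stated, so the counts of both genes are uncertain. The values of IL1R1 and IL18 may also be affected: IL1R1-AS1 and AP002884.3 lie on their opposite strands, and the sources do not state a strand-specific library. Neither of these 2 overlapping genes is in the count table.

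**Figure D1:**
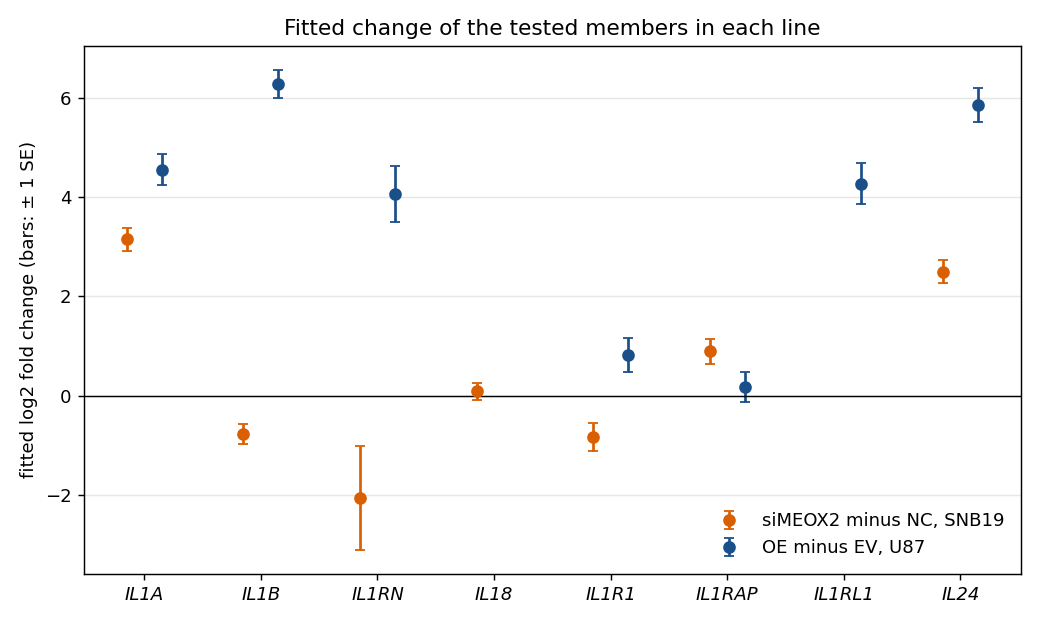
The y axis is the fitted log2 fold change with bars of 1 SE, and the x axis lists the tested members. Orange points are siMEOX2 minus NC and blue points OE minus EV. IL1A and IL24 lie above 2 in both lines, and IL1B lies at -0.77 in SNB19 and 6.29 in U87. IL18 in U87 and IL1RL1 in SNB19 are not drawn, since no library there had more than 2 counts.

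By the call rule of an adjusted p under 0.05, 4 of the 8 tested members were called in SNB19, 3 higher (IL1A, IL24, IL1RAP) and 1 lower (IL1B). Over all genes 15.1% were called in that comparison, 6.74% higher and 8.40% lower. In U87, 5 of the 8 were called and all 5 were higher (IL1A, IL1B, IL1RN, IL1RL1, IL24), where 25.3% of all genes were called, 10.9% higher and 14.4% lower. Nothing is read from these counts or from the call of any single member, since the members were selected on those comparisons. The median log2 fold change of the tested members was 0.36 in SNB19 and 4.17 in U87, beside medians of -0.001 and -0.017 over all genes. Each includes a value at the floor, IL1RL1 in SNB19 with 3 and 5 counts and IL18 in U87 with 1 and 0. The SNB19 median lies between IL18, at 0.08, and that IL1RL1 value of 0.63, so it is not read as a shift. The rule set no threshold.

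Compared per length, the order of the 9 transcripts differed between groups. In NC it ran from IL18 (11.09 ± 0.37 FPKM, SD, n = 3) over IL1R1 (6.40), IL24 (4.39) and IL1B (3.53) to IL1A (1.83) and IL1RAP (1.79), whose libraries overlapped. In siMEOX2 IL24 came first at 26.56 ± 6.68 FPKM, then IL1A at 17.42 ± 3.67 and IL18 at 12.48 ± 1.06. Of these neighbours, the IL24 and IL1A libraries overlapped, and the lowest IL1A library, at 13.46 FPKM, lay just above the highest IL18 library, at 13.32 FPKM. In EV IL1B (5.04 ± 0.93, SD, n = 2) and IL1R1 (4.17 ± 3.34) overlapped, as did IL1A (1.45) with IL1RAP (1.44) and IL1RAP with IL1RN (1.12). In OE the order was IL1B, IL24 (53.35 ± 4.23), IL1A (41.31 ± 0.89), IL1RN (22.55 ± 0.33), IL1R1 (7.98 ± 0.11), IL1RL1 (4.03 ± 0.02) and IL1RAP (1.80 ± 0.03), with no overlap between neighbours.

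The members were not chosen on the difference between the control lines, so this was tested. It compares NC with EV, and the cell line, the reagent and the drug selection cannot be told apart in it. It also shares its libraries with the comparisons above. By edgeR's quasi-likelihood test with Benjamini-Hochberg adjustment over all genes, 56.4% of genes were called, 27.9% higher and 28.6% lower in SNB19, and 5 of the 8 tested members were called, 2 higher and 3 lower. Of these, IL18 passed the filter on low counts only through SNB19, and IL1RN and IL1RL1 only through U87. Their calls are therefore not independent of the filter, and nothing is read from the count of members called. IL18 had 1333 counts in NC against 1 in EV, 680 times as many for the depth (95% exact binomial interval 121.9 to 26880, counting error only; adjusted p = 9.09e-07). IL24 was higher in NC, by a log2 fold change of 2.12 ± 0.31 (adjusted p = 0.000435). IL1B was lower, at -0.88 ± 0.22 (adjusted p = 0.00732), and so was IL1RN, at -3.32 ± 0.64 (adjusted p = 0.00205).

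IL1RL1 was higher in EV, with 30 counts against 3, 19.6 times as many for the depth (95% exact binomial interval 6.1 to 100.4, counting error only; adjusted p = 0.000647). IL33, which was not tested, had 18 counts in EV and 0 in NC, at least 11.8-fold higher against a floor of 3 counts over the NC group. IL1A did not pass, with a log2 fold change of -0.07 ± 0.28 (adjusted p = 0.837). Neither did IL1R1, at 0.36 ± 0.32 (adjusted p = 0.361), nor IL1RAP, at 0.03 ± 0.28 (adjusted p = 0.929). Those 2 receptor values turned on the EV libraries. Without EV replicate 2, IL1R1 was called at 1.20 (adjusted p = 1.13e-09) and IL1RAP at 0.62 (adjusted p = 0.00276), while without EV replicate 1 IL1RAP was called at -0.41 (adjusted p = 0.0209).

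The other listed ligand genes of the interleukin-1 family lie with IL1A and IL1B in a cluster on chromosome 2, while IL18 and IL33 do not. Of these 6 other ligand genes, 3 passed the filter, and all 3 were called higher in OE while none was called in siMEOX2. IL36G passed only through OE, with 20 and 23 counts there and at most 4 in any other library. Its call in OE is therefore not independent of the filter. Over all genes, 10.9% were called higher in OE and 15.1% in either direction in siMEOX2. IL36B, an epithelial ligand of the family, was counted 282 and 348 times in EV and 2540 and 2923 times in OE, a log2 fold change of 3.04 ± 0.30 (edgeR adjusted p = 0.000288). IL36RN, the antagonist of the IL-36 receptor, was counted 91 and 107 times in EV and 1362 and 1544 times in OE, at 3.80 ± 0.29 (adjusted p = 9.38e-05). IL36G, which falls outside the naming rule for its low level and was named after its values were seen, had 2 counts in EV and 43 in OE, 20.4 times as many for the depth (95% exact binomial interval 5.31 to 173.6; adjusted p = 0.0119). IL36A, IL37 and IL1F10 had at most 6 counts in any library.

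Genes beside the cluster, from a list of 7 neighbours of which 6 were tested, had smaller fitted changes than the family genes in U87. In SNB19 the ranges of the 2 sets overlapped. CKAP2L, a spindle gene 9.2 kb from IL1A, had a log2 fold change of -0.06 (adjusted p = 0.889) in SNB19 and 0.17 (adjusted p = 0.606) in U87, and SLC20A1, a phosphate transporter 110.1 kb away, had -0.03 (adjusted p = 0.906) and -0.24 (adjusted p = 0.224). POLR1B, a subunit of RNA polymerase I 196.8 kb away, was called higher in both, at 0.79 ± 0.20 (adjusted p = 0.0273) and 0.81 ± 0.24 (adjusted p = 0.0378). TTL, a tubulin tyrosine ligase, fell by 1.01 ± 0.11 on the log2 scale in SNB19 (adjusted p = 0.000741), and PSD4 fell by 0.89 ± 0.23 (adjusted p = 0.0319). In all, 3 of 6 were called in SNB19, 1 higher and 2 lower, and 1 of 6, higher, in U87. Beside these counts stand 15.1% and 25.3% called over all genes.

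**Figure D2:**
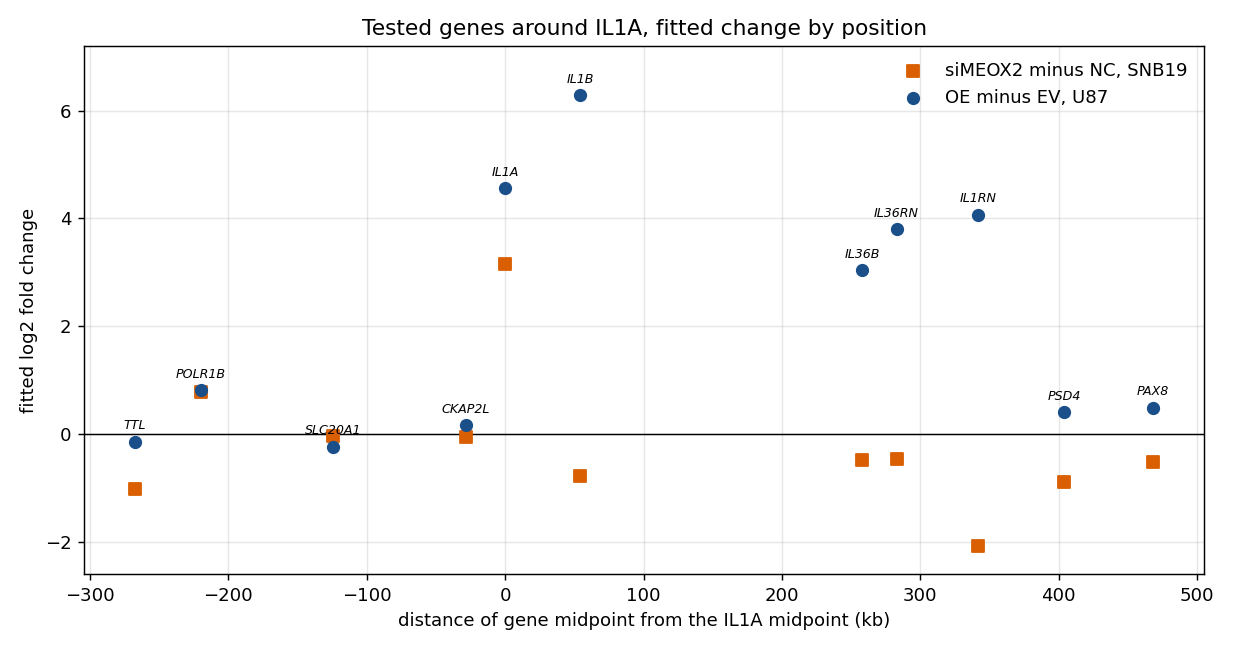
The x axis is the distance in kb of each gene's midpoint from that of IL1A and the y axis the fitted log2 fold change, with orange squares for siMEOX2 minus NC and blue circles for OE minus EV. In U87 the 5 drawn family genes lie between 3.04 and 6.29 and the 6 flanking genes between -0.24 and 0.81. In SNB19 IL1A lies at 3.15 and the next highest drawn gene, POLR1B, at 0.79. IL36G is not drawn, since a group in each line had 3 or fewer counts.

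IL24 sits in the interleukin-10 cluster of chromosome 1. Of 5 relatives listed, 4 were in the table, namely IL10, IL19, IL20 and IL22, and none passed the filter on low counts. IL20, 28.2 kb from IL24, had at most 7 counts in any library, and IL10 and IL19 at most 1. Of 8 other neighbours, 7 were tested, with 2 called in SNB19 (1 higher, 1 lower) and 3 in U87 (2 higher, 1 lower). The shares called over all genes were 15.1% and 25.3%. FCMR, an IgM receptor gene that ends 0.2 kb from the end of IL24 on the opposite strand, had 0.01 (adjusted p = 0.992) in SNB19 and 1.19 ± 0.31 (adjusted p = 0.0247) in U87, where it was 1.71 without EV replicate 1 and 0.86 without EV replicate 2. DYRK3, a kinase gene, rose by 0.97 ± 0.17 in U87 (adjusted p = 0.00450), C1orf116 rose by 1.88 ± 0.38 in SNB19 (adjusted p = 0.0151), and MAPKAPK2, a stress kinase, fell by 0.52 ± 0.15 (adjusted p = 0.0429) and 0.57 ± 0.18 (adjusted p = 0.0435).

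The receptor chains for IL24 were unevenly present. IL20RB had group means of 1.45 ± 0.33 CPM (SD, n = 3) in NC and 21.91 ± 8.99 (SD, n = 2) in EV, a difference of -3.92 ± 0.30 on the log2 scale (adjusted p = 7.64e-06). IL22RA1 had 5.07 ± 0.92 CPM in NC and 0.25 ± 0.03 in EV, a difference of 4.33 ± 0.34 (adjusted p = 8.14e-06), with 2 or 3 counts in each U87 library. IL20RA did not pass the filter and had a group mean of at most 0.036 CPM. Of 13 genes of this list, 10 were tested and 1 was called in each line, the cytokine signalling inhibitor SOCS1. Over all genes 15.1% were called in SNB19 and 25.3% in U87. SOCS1 fell by 1.43 ± 0.21 in SNB19 (adjusted p = 0.00315) and by 1.34 ± 0.25 in U87 (adjusted p = 0.00582).

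Of 8 other receptors and binding proteins of the interleukin-1 family, 5 were tested. None was called in SNB19, and IL18R1, a chain of the IL18 receptor, was called higher in U87, at 1.28 ± 0.33 (adjusted p = 0.0225), with the uncertainty from its overlap with IL1RL1. Of 21 tested signalling genes downstream of the receptor, 3 were called in SNB19, all lower. MYD88, the adaptor, fell by 1.03 ± 0.16 (adjusted p = 0.00370), TAB2, an adaptor of the TAK1 kinase, by 0.71 ± 0.13 (adjusted p = 0.00702) and PELI3, a ubiquitin ligase, by 0.64 ± 0.17 (adjusted p = 0.0318). In U87, 7 of 21 were called, 6 higher and 1 lower. Over all genes the shares called were 15.1% in SNB19 and 25.3% in U87. PELI2, a ubiquitin ligase of the same family, rose by 2.32 ± 0.27 (adjusted p = 0.000629), IRAK2, a receptor-proximal kinase, by 1.49 ± 0.30 (adjusted p = 0.00801), PELI1 by 1.25 ± 0.39 (adjusted p = 0.0441) and IKBKG by 0.78 ± 0.24 (adjusted p = 0.0442). These values depended on the EV libraries. Without EV replicate 1 they were 1.99 for PELI2, 1.10 for IRAK2, 0.71 for PELI1 and 0.48 for IKBKG, and without EV replicate 2 they were 2.91, 2.15, 2.33 and 1.29.

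Genes that mature the ligands, including inflammasome sensors and calpains, were mixed. In SNB19, 6 of 12 were called, 2 higher and 4 lower. NLRP1, an inflammasome sensor, rose by 0.74 ± 0.13 (adjusted p = 0.00596) and NLRC4 by 1.12 ± 0.32 (adjusted p = 0.0442), while CAPN2, a calpain, fell by 0.83 ± 0.14 (adjusted p = 0.00596). In U87, 4 of 12 were called, all lower. The shares called over all genes were 15.1% in SNB19 and 25.3% in U87. GSDMD, the pore through which interleukin-1 beta leaves cells, fell by 2.55 ± 0.47 (adjusted p = 0.00533), NLRP1 by 1.19 ± 0.16 (adjusted p = 0.00134) and CAPNS1, the small calpain subunit, by 1.45 ± 0.35 (adjusted p = 0.0179). The EV libraries differed for GSDMD, with 158 ± 124.9 CPM (SD, n = 2), and its log2 fold change was -1.33 without EV replicate 1 and -3.16 without EV replicate 2. For CAPNS1 the same values were -0.59 and -1.93. CAPN1, the other large calpain chain, was called lower in both lines, by 0.58 ± 0.11 in SNB19 (adjusted p = 0.00761) and 0.47 ± 0.13 in U87 (adjusted p = 0.0283).

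Genes known to be induced by interleukin-1 were mostly higher where they were called. Of 23, all tested, 11 were called in SNB19, 9 higher and 2 lower, and 16 in U87, 15 higher and 1 lower. Over all genes, 6.74% were called higher and 8.4% lower in SNB19, and 10.9% and 14.4% in U87. The list median was 0.61 in SNB19 and 1.03 in U87. With genes of 3 or fewer counts in a group set to their count ratio or bound, and those at or under 3 counts in both groups left out, it was 0.50 and 1.21. CCL20, a chemokine, was counted 51, 49 and 61 times in NC and 582, 988 and 1030 times in siMEOX2, a log2 fold change of 3.98 ± 0.26 (adjusted p = 0.000106). IL6, an inflammatory cytokine, was counted 68, 33 and 40 times in NC and 281, 386 and 369 times in siMEOX2, at 2.86 ± 0.33 (adjusted p = 0.000965). CSF3, the granulocyte growth factor, had 2.44 ± 0.64 (adjusted p = 0.0334).

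CXCL8, a neutrophil chemokine, rose in both lines. It was counted 88, 69 and 118 times in NC and 355, 547 and 511 times in siMEOX2, at 2.34 ± 0.23 (adjusted p = 0.000670). In U87 it was counted 1497 and 1781 times in EV and 30109 and 37898 times in OE, at 4.29 ± 0.30 (adjusted p = 6.07e-05). The matrix proteases led in U87. MMP3 was counted 70 and 69 times in EV and 8574 and 10099 times in OE, at 6.98 ± 0.22 (adjusted p = 7.74e-07), and MMP1 6 and 11 times in EV and 424 and 637 times in OE, at 5.86 ± 0.39 (adjusted p = 6.07e-05). PTGS2, a prostaglandin synthase, was counted 95 and 231 times in EV and 4104 and 4278 times in OE, at 4.65 ± 0.39 (adjusted p = 0.000412), and it had at most 1 count in any SNB19 library. Its U87 value was 4.27 without EV replicate 1 and 5.29 without EV replicate 2.

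The 2 genes lower in SNB19 were BIRC3, at -0.53 ± 0.13 (adjusted p = 0.0242), and MMP1, with 21 counts in NC and 2 in siMEOX2 (adjusted p = 0.0155). The 1 gene lower in U87 was CCL2, with 5 counts in EV and 0 in OE (adjusted p = 0.0421). These 3 were named after their values were seen. Of the 23, 8 were called higher in both lines (CCL20, CXCL2, CXCL8, IL6, LIF, MMP3, NFKBIZ and SOD2), which is 34.78% of the list, beside 304 of 17312 genes, or 1.76%, over the whole table. None was called lower in both, and 2 were called in opposite directions. The list was chosen with results of these data known, so nothing is read from the difference between these shares. The inhibitors TNFAIP3 and NFKBIA, also named after their values were seen, had -0.05 ± 0.28 (adjusted p = 0.950) and 0.07 ± 0.12 (adjusted p = 0.756) in SNB19 and 2.65 ± 0.37 (adjusted p = 0.00154) and 0.85 ± 0.14 (adjusted p = 0.00328) in U87. The EV libraries differed for TNFAIP3, with 17.55 ± 10.7 CPM (SD, n = 2), so its U87 value depends on them.

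**Figure D3:**
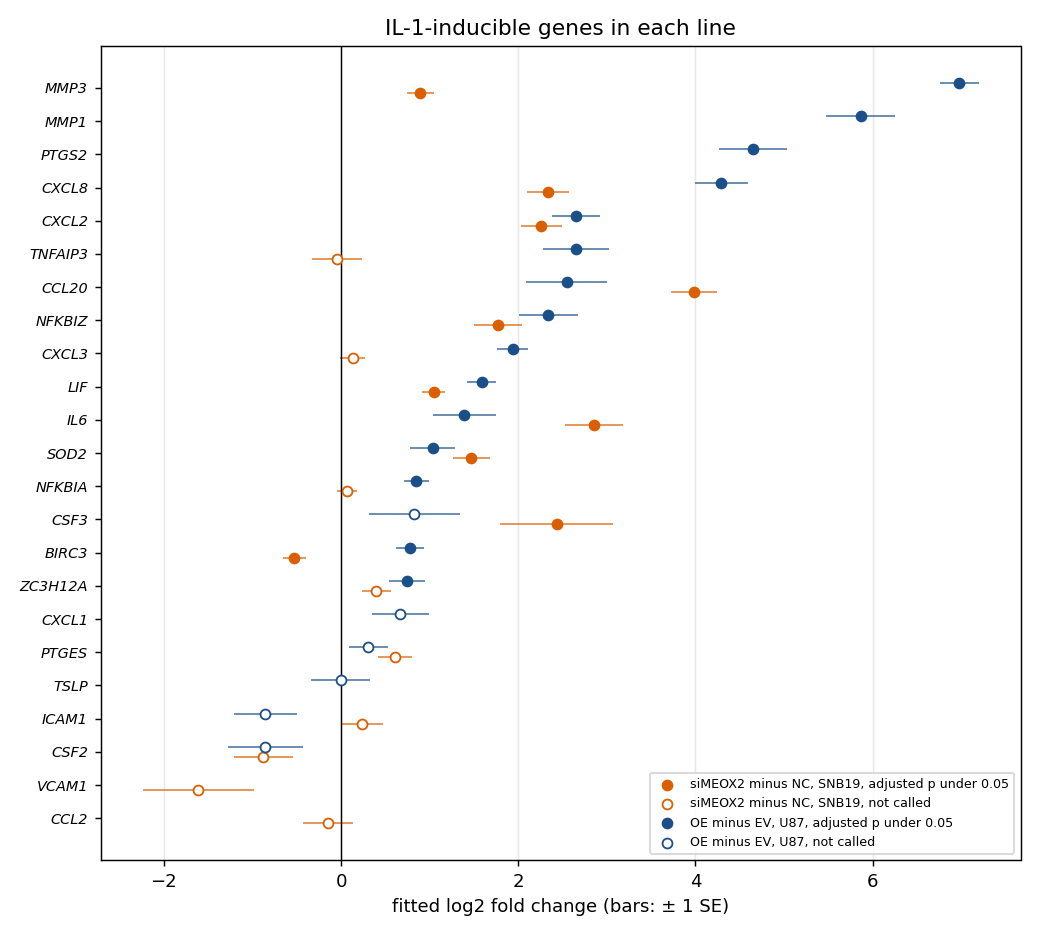
Rows are the interleukin-1-inducible genes and the x axis is the fitted log2 fold change with bars of 1 SE. Orange is siMEOX2 minus NC and blue OE minus EV, with filled points for an adjusted p under 0.05. Most filled points lie right of 0, and the widest in U87 is MMP3 at 6.98. Values where a group had 3 or fewer counts are not drawn.

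Of 13 subunits of AP-1 and NF-kB, 4 were called in SNB19, 3 higher and 1 lower, and 3 in U87, all higher. Beside these counts, 15.1% of all genes were called in SNB19 and 25.3% in U87. ATF3, a stress-induced partner of JUN, rose in both, by 1.40 ± 0.14 (adjusted p = 0.000671) and by 2.60 ± 0.18 (adjusted p = 6.07e-05). FOSB rose by 0.93 ± 0.24 in SNB19 (adjusted p = 0.0339) and by 3.06 ± 0.37 in U87 (adjusted p = 0.000725). FOS rose by 1.36 ± 0.26 in SNB19 (adjusted p = 0.0101), where JUND fell by 0.61 ± 0.14 (adjusted p = 0.0214), and JUN rose by 1.87 ± 0.25 in U87 (adjusted p = 0.00114). Without EV replicate 1 the U87 values were 3.76 for FOSB and 1.57 for JUN, and without EV replicate 2 they were 2.60 and 2.36.

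Over all 10 lists, 100 of 119 genes were tested. In SNB19 30 were called, 16 higher and 14 lower, and in U87 39, 31 higher and 8 lower. Over all genes the shares called were 15.1% and 25.3%. The medians over the 100 genes were 0.04 and 0.40. Without EV replicate 1 the calls numbered 64 in SNB19 and 62 in U87, and without EV replicate 2 they numbered 66 and 71. Between the control lines 68 were called, 27 higher and 41 lower in SNB19, beside 56.4% over all genes. The lists were chosen with results of these data known, and no test was made of any list as a whole. The U87 calls lean on a spread estimated over all 4 groups: with the 4 U87 libraries fitted on their own, edgeR's quasi-likelihood test called 0 genes (2503 of 14180 had an unadjusted p under 0.05), while DESeq2 over all 10 libraries called 5879. The SNB19 calls lean on the same spread. With the SNB19 libraries fitted on their own, edgeR called 8687 of 15525 genes and 63 of 89 listed genes. A gene not called in SNB19 is therefore not shown to be unchanged. In SNB19 the calls of CSF3, NLRC4, PELI3, FOS, FOSB, JUND, POLR1B, PSD4, C1orf116 and MAPKAPK2 were each lost without any of several single libraries, and that of CAPN1 without siMEOX2 replicate 2. In U87 the same held for CAPN1, CAPNS1, GSDMD, IL18R1, IKBKG, PELI1, POLR1B and MAPKAPK2, while the calls of IRAK2 and SOCS1 were lost without OE replicate 1 and that of FCMR without OE replicate 2. With no filter on low counts, the calls of MAPKAPK2 in both lines, CAPN1 in U87 and CSF3, NLRC4 and PELI3 in SNB19 were lost, and with DESeq2's size factors that of MAPKAPK2 in U87 was lost. With a replicate block in the model, 12 calls of genes named by rule were lost in SNB19, among them NLRP1 and TAB2, while 9 were kept. In U87 8 were lost and 15 kept.

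The genes whose pattern was most like that of IL1A were found over the 10 libraries by Pearson's r of log2(CPM + 1) after subtracting each line's mean, among 14443 genes. They share the libraries and the 2 contrasts, so r is a description. For IL1A they were XBP1 (r = 0.997), WDR12 (0.997), THNSL1 (0.995), HOXB9 (0.994) and VPS37C (0.993). XBP1, a transcription factor of the unfolded protein response, had group means of 61.19, 113.7, 119 and 326.2 CPM in NC, siMEOX2, EV and OE. For IL24 they were ZNF330 (0.996), RAP1GAP2 (0.995), PPP1R15A (0.995), ZNF528 (0.995) and C19orf44 (0.993). PPP1R15A, a stress-induced phosphatase subunit, had 29.82, 74.12, 122.2 and 773.8 CPM. IL1A and IL24 had r = 0.982 with each other, which placed IL24 at 21 in the order for IL1A and IL1A at 26 in that for IL24. Against IL1A, r was 0.785 for IL1RL1, 0.695 for IL1RN, 0.679 for IL1B, 0.602 for IL1RAP, 0.03 for IL18 and 0.02 for IL1R1.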

How the data were processed

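Per the labels and the study's methods, poly-T selected mRNA was made into libraries with NEBNext Ultra and sequenced as paired ends. The submitters' processing notes name HISAT2, HTSeq 0.11.2, DESeq2 1.26.0 and GRCh38. The authors deposited whole-number counts and FPKM per gene in a single table. FPKM was computed by the authors as count per total count and gene length, so it carries no TMM scaling.

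From the counts, edgeR 4.0.16 (R 4.3.3) fitted 1 model with a mean for each of 4 groups, by robust quasi-likelihood with TMM factors, after filterByExpr (minimum count 10, minimum total 15). Adjusted p is by Benjamini-Hochberg over all 17312 genes, with calls under 0.05. SE is the absolute log2 fold change over the root of the F statistic. CPM are TMM-scaled. Alternatives were DESeq2 1.42.0, its size factors, no filter, a fold threshold, each line alone, a replicate block and leaving out each library.

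The members and gene lists were chosen with earlier results of these data known. Named genes are the 9 members, MEOX2, up to 4 called genes per list and comparison with the largest absolute log2 fold change at a mean of at least 1 CPM, and the 5 genes most like IL1A and IL24. Intervals and floors cover counting error only. All 34567 gene IDs were found in GENCODE 29, 34556 with the same symbol. Promoter windows of 8 members came from RefSeq.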

Additional observations from a re-analysis of the deposited data

How the results depend on the processing

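Members called in a comparison kept the direction of their fitted log2 fold change under each of these alternatives that gave a value. In all 3 comparisons these were DESeq2, its size factors and no filter on low counts. In the knockdown and the overexpression they were also each line alone and the replicate block. For members not called, a change of sign could go unscored. IL18 in U87 and IL1RL1 in SNB19 were left out for their low counts, and IL33 was not tested. Leaving out 1 library moved IL1A in U87 between 4.21 and 5.09 on the log2 scale, IL24 between 5.50 and 6.40, IL1RN between 3.83 and 4.43, IL1RL1 between 3.79 and 5.05, IL1R1 between 0.33 and 1.71, and IL1RAP between -0.20 and 0.84. In SNB19 IL1RN moved between -5.75 and -0.88. Between the control lines IL1A, not called, moved between -0.48 and 0.42, IL1R1 between -0.18 and 1.20 and IL1RAP between -0.41 and 0.62, with the value of -0.41 reversed from 0.03 without EV replicate 1. The cause was not tested.

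Counts of calls moved more. For the knockdown, the 2622 genes (30 of the listed genes) became 1200 (17) with a log2 fold over 1, 8687 (63) with SNB19 fitted alone, and 1065 to 8701 (17 to 66) leaving out 1 library, the highest without an EV library. For the overexpression, the 4375 genes (39) became 2789 with the fold threshold, 0 (0) with U87 fitted alone by edgeR, where 2503 genes had an unadjusted p under 0.05 and fewer samples give the spread, and 1467 to 10932 (21 to 71) leaving out 1 library. DESeq2 called 3901, 5879 and 10334 genes in the knockdown, the overexpression and between the control lines. The latter had 9769 calls (68), and 8100 to 13545 (57 to 85) leaving out 1 library.

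Replicate numbers showed no pairing of the SNB19 samples: same-numbered deviations correlated at 0.043, 0.003 and 0.059. In U87 the value was -0.162. With 2 libraries per group that value changes sign when the numbers are crossed, so it does not decide pairing there. Both OE titles also bear the same replicate number. With the replicate block, 861 genes (15) were called in the knockdown and 1908 (22) in the overexpression. With the U87 numbers crossed, an alternative added after seeing the data, 3467 (36) were called. Depth limits the levels of IL18 in U87, of IL33 and IL1RL1 in SNB19, and of IL1RN in siMEOX2, where 5 counts or fewer stood in each group, and of IL33 in U87, with 18 and 7 counts.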
